A study of Mus musculus with 12 samples.

Results

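The nuclear-encoded subunits of the mitochondrial respiratory chain were followed in the BV-2 line (BV2 in the labels), which derives from microglia of the mouse and is grown in culture. Microglia are the resident macrophages of the brain. Members were the genes whose symbols name a structural subunit of complexes I to V (Ndufa, Ndufb, Ndufc, Ndufs and Ndufv with a number, Sdha to Sdhd, Uqcr, Cox4 to Cox8 and Atp5), without assembly factors and pseudogenes. Of 87 symbols that fit, 82 had a probe on the array and 78 were tested among 19323 genes and transcripts in all. These 78 divide into 34 of complex I, 4 of complex II, 8 of complex III, 15 of complex IV (Ndufa4 among them) and 17 of complex V. Cox7b2, Cox8b and Cox8c were not well above background on any array and Cox4i2 was so on 3 arrays only, so these 4 were not tested. No probe was matched by accession for Ndufa4l2, Ndufb1, Ndufb4b, Ndufb4c and Ndufa11.

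The respiratory chain sits in the inner mitochondrial membrane. Complexes I and II pass electrons from NADH and succinate to ubiquinone, complex III passes them on to cytochrome c, and complex IV to oxygen. Complexes I, III and IV pump protons, and complex V uses the proton gradient to make ATP. The genes of most subunits lie in the nucleus and are known targets of the transcription factors NRF1, GABPA and YY1, with coactivators of the Ppargc1 family. In activated macrophages and microglia, metabolism is known to shift towards glycolysis.

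The study compared 4 groups of 3 arrays each. Cells received LPS (lipopolysaccharide from the bacterial outer membrane, sensed by Toll-like receptor 4) at 100 ng/ml together with 20 µM curcumin (a polyphenol of turmeric), 20 µM curcumin alone, 100 ng/ml LPS alone, or no treatment. The treatments lasted 6 h. For untreated cells the labels give no time, and they name no vehicle. Nothing in the labels says that the arrays of a group came from separate cultures, so p-values measure only the spread between these samples. The 12 arrays lay on 3 slides, each with 1 array of every group at a fixed position, so group and position on the slide cannot be told apart.

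Of 11 microglia and macrophage markers with a probe, 10 were well above background on all 12 arrays, and Cx3cr1 was so on 9. Replicate 1 of LPS+curcumin differed from replicates 2 and 3. Over all genes it correlated at 0.982 with LPS and 0.950 with curcumin, against 0.939 and 0.984 for replicate 2, and 0.922 and 0.985 for replicate 3. LPS+curcumin replicate 2 had 1594 spots marked as outliers by the scanner software, against at most 163 on any other array, which removed Ndufa5 and Ndufa12 from it.

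The scale of the arrays differed between groups, and every level below depends on it. A level is given as the log2 signal minus the array's own 75th percentile unless spike-in scaling is named, in which the mean log2 level of 7 probes for added control RNAs is subtracted. The 75th percentile itself, relative to the spike-in probes, averaged -2.08 ± 0.650 with LPS and curcumin, -2.19 ± 0.153 with curcumin, -1.36 ± 0.143 with LPS and -1.09 ± 0.184 in untreated cells (log2, SD, n = 3 each). The difference between arrays with and without curcumin was -0.91 log2 (exact two-sided permutation test within the LPS and no-LPS arrays, p = 0.015 over 400 regroupings). Within slides it ran from -1.20 to -1.05 log2 without LPS and was -0.86 and -1.42 with LPS on slides 2 and 3, but 0.12 with LPS on slide 1, which holds LPS+curcumin replicate 1. The mean log2 level of the spike-in probes was itself 11.23, 11.44 and 11.24 with curcumin and 10.83, 10.91 and 11.19 in untreated cells. In bulk RNA, fewer cells, less RNA per cell, and the amount and labelling of the RNA used cannot be told apart. The part of each in this shift was not tested. Between curcumin and untreated cells, the median of all 19323 genes stood at 0.41 log2 on the 75th percentile and at -0.69 on the spike-in probes, so changes of the subunits are also given relative to that median.

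Promoter windows, from 250 bases before to 50 bases after the start, were at hand in RefSeq (GRCm38.p6) for 65 of the 78 members, 5 of them with more than 1 window. They were searched on both strands for GCGC and TGCGC with any 1 base between them (the core recognised by NRF1), CCGGAAG (recognised by GABPA and other ETS factors) and AAGATGG (recognised by YY1). Matches were counted for each motif on its own, whether or not they overlapped another. A match describes letters, not binding. The NRF1 letters occurred in windows of 16 members, the GABPA letters in 17 and the YY1 letters in 11. These are 24.6%, 26.2% and 16.9% of the members, against 10.7%, 18.7% and 8.25% of the 10182 tested genes with a window. At least 1 of the 3 occurred in 58.5% of the members, against 32.7% of those tested genes. Counted by window, of all 32851 windows, 4.60% held the NRF1 letters, 8.86% the GABPA letters and 6.34% the YY1 letters, and among the 70 windows of members these shares were 24.3%, 24.3% and 15.7%. The windows of 4 genes named in the results below are printed as examples. Matching letters are in capitals, and some read as the reverse complement of the letters given (CTTCCGG for the GABPA letters).
Atp5e: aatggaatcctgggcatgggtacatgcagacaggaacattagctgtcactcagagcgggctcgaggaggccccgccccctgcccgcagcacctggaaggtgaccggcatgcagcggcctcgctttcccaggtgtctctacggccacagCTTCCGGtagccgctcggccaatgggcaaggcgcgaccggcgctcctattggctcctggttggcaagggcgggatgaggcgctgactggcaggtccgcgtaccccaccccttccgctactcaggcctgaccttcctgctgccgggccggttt
Ndufs6: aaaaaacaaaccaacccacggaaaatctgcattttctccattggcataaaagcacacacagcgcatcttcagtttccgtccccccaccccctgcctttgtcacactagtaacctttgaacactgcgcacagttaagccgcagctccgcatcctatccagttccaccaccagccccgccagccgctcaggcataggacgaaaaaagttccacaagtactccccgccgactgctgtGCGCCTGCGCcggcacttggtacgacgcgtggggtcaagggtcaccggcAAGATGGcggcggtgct
Sdhd: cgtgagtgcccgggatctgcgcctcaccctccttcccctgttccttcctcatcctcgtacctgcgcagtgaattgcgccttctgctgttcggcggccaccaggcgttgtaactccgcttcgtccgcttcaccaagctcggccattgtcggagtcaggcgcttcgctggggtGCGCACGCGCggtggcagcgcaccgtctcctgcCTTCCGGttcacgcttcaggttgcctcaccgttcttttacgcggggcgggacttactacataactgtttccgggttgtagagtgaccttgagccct
Uqcrfs1: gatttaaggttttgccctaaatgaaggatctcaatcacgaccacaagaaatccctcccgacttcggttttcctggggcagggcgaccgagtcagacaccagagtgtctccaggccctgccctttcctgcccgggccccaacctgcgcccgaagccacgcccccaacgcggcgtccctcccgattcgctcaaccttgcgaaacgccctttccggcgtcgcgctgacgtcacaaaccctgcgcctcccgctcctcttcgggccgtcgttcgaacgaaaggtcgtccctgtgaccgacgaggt
Atp5e (chr2:174464052-174464351, minus strand) carries 1 match to the GABPA letters and was among the 5 highest called subunits under curcumin. Ndufs6 (chr13:73328433-73328732, minus strand) carries 1 NRF1 and 1 YY1 match and was among the 5 lowest called. Sdhd (chr9:50603800-50604099, minus strand) carries 1 NRF1 and 1 GABPA match and was called lower on spike-in scaling, as were 43.5% of all genes. Uqcrfs1 (chr13:30545267-30545566, minus strand) holds none of these letters and had the lowest value of all subunits under curcumin. Windows of Ndufa7, Ndufa1 and Cox7a2l, which had higher values than Atp5e, hold none of these letters either. Ndufb4, with a lower value than Ndufs6, carries the NRF1 letters. Members with and without the letters had nearly the same median change under curcumin. It was 0.71 log2 with and 0.71 without the NRF1 letters, 0.72 with and 0.70 without the GABPA letters, and 0.70 with and 0.71 without the YY1 letters.

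Curcumin was compared with no treatment first. Relative to the array's 75th percentile, all 78 subunits had higher means in curcumin-treated than in untreated cells, with changes from 0.35 log2 (Uqcrfs1) to 1.09 (Cox6a2) and a median of 0.71, or 1.63-fold. Limma called 24 of them higher and 0 lower at an adjusted p below 0.05, and 69 had an unadjusted p under 0.05. The calls are 30.8% of the subunits against 21.9% of all genes tested, a share near the background, while 7.27% of all genes were called lower. On spike-in scaling all 78 values were negative, with a median of -0.40 log2 (0.760-fold), and limma called 0 higher (all genes, 7.25%) and 4 lower, 5.13% of the subunits against 43.5% of all genes. An unadjusted p under 0.05 was found for 7 subunits there. The direction of the subunits as a group therefore turned with the scaling.

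The subunits' median lay 0.29 log2 above that of all genes, a distance that no scaling by 1 constant per array can change. It did change with other choices, to 0.17 on quantile scaling and -0.0074 with no filter on dim probes. For probes well above background on all 12 arrays it was 0.35. After normexp background correction it was -0.49, but normexp raised the 75th percentile of curcumin replicate 1 to 2934, against 599.8 uncorrected. Without that array, an alternative chosen after seeing the data, the distance after normexp was 0.17. Most subunits are bright: 64 of the 78 lay among the 1933 brightest genes tested. In that bright class the median change was 0.71 log2 for the subunits and 0.60 for all its genes, and limma called 31.2% of those subunits higher against 17.4% of the class. The interquartile range of the changes was 0.11 log2 for the subunits, against 0.38 for the genes of the bright class and 0.95 for all genes. No member probe was marked as saturated on any array.

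**Figure D1:**
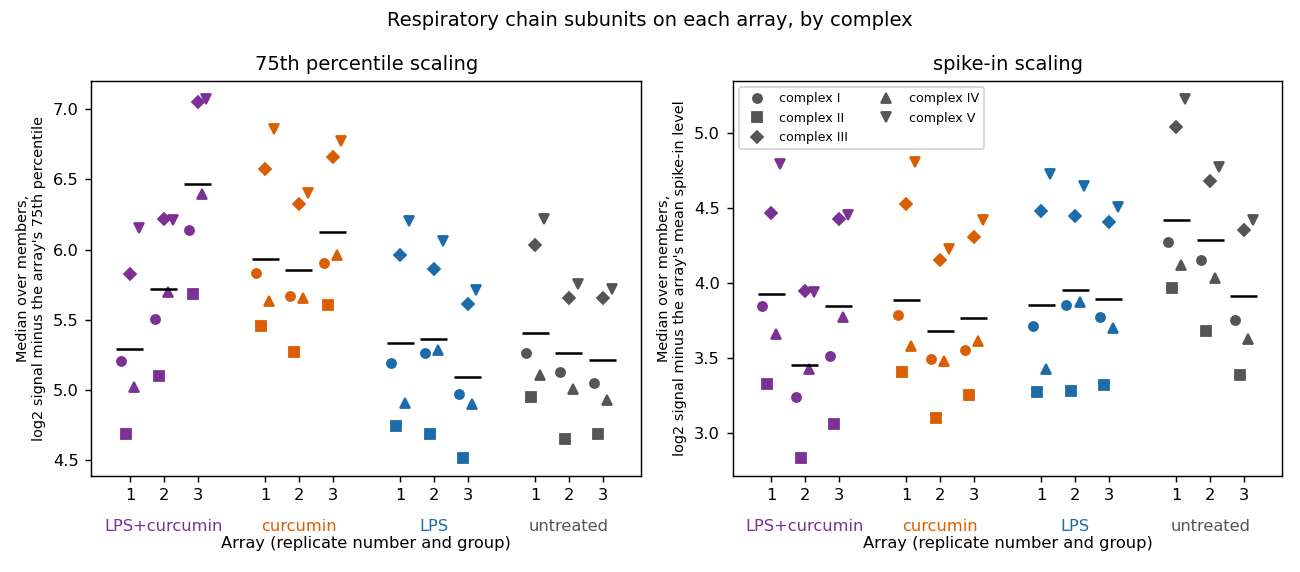
Median log2 level of the subunits on each of the 12 arrays (black bars) and by complex (symbols), scaled to the array's 75th percentile on the left and to the spike-in probes on the right. On the left the 3 curcumin arrays sit at 5.86 to 6.12 and the 3 untreated arrays at 5.21 to 5.41; on the right the order turns, with 3.68 to 3.89 for curcumin and 3.92 to 4.42 for untreated cells. Symbols of different complexes hold different probes, so heights compare arrays and not complexes.

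Per array, the median level of the subunits was 5.94, 5.86 and 6.12 in curcumin-treated cells, against 5.41, 5.26 and 5.21 in untreated cells. On spike-in scaling it was 3.89, 3.68 and 3.77 with curcumin and 4.42, 4.29 and 3.92 without. The groups did not overlap on either scale, though untreated replicate 3 came close to curcumin replicate 1 on the spike-in scale, and their order was opposite. For 76 of 78 subunits the 3 curcumin arrays lay above all 3 untreated arrays on the 75th-percentile scale (all genes, 47.5%), and for 34 they lay below on the spike-in scale (all genes, 61.2%). Within slides 1, 2 and 3 the median change was 0.55, 0.62 and 0.97 log2. Before any scaling, the median log2 signal of the subunits was 15.08 ± 0.063 with curcumin and 15.18 ± 0.075 in untreated cells (SD, n = 3 each), a distance close to that spread.

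The number of calls rested on single arrays. Without LPS+curcumin replicate 1, which enters the curcumin comparison only through the shared estimate of the spread, limma called 71 of 78 subunits higher (all genes, 36.8%). Leaving out each array in turn gave counts of 1 to 75, and none of the 24 calls held under every one of these fits or on all 5 scalings. For the other fits that left out 1 array the share of all genes was not counted. With the slide as a replicate block, 33 were called higher (all genes, 31.2%).

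Complex I, the entry point for electrons from NADH, had a median change of 0.70 log2 under curcumin. Of its 34 subunits, 11 were called higher (all genes, 21.9%). Ndufa7, an accessory subunit, had levels of 6.38, 6.18 and 6.42 with curcumin and 5.43, 5.38 and 5.35 without. All curcumin arrays lay above all untreated arrays. Ndufa7 rose by 0.94 log2 (SE 0.25, limma adjusted p = 0.020), but its value was -0.16 on spike-in scaling. Another probe of Ndufa7 gave 0.70. Ndufa1, a small membrane subunit needed for assembly of the complex, had levels of 6.22, 6.22 and 6.53 with curcumin and 5.31, 5.46 and 5.38 without. It rose by 0.94 log2 (SE 0.26, limma adjusted p = 0.023), against -0.17 on spike-in scaling.

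Among the core subunits, Ndufs1, which carries iron-sulfur clusters, had levels of 5.83, 5.65 and 5.92 with curcumin and 5.13, 5.19 and 5.16 without. The groups lay well apart, and Ndufs1 rose by 0.64 log2 (SE 0.22, limma adjusted p = 0.0496), the smallest change among those called. Its spike-in value was -0.47. Ndufv1, which binds NADH and flavin, had levels of 6.31, 6.14 and 6.26 with curcumin and 5.58, 5.41 and 5.37 without. It rose by 0.78 log2 (SE 0.24, limma adjusted p = 0.033), with -0.33 on the spike-in scale. Ndufs6, a zinc-binding subunit, and Ndufb4, an accessory membrane subunit, rose by 0.70 and 0.66 log2 (limma adjusted p = 0.043 and 0.046), with spike-in values of -0.40 and -0.44.

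Complex II, succinate dehydrogenase, had a median change of 0.69 log2 with 1 of 4 subunits called higher (all genes, 21.9%). The catalytic flavoprotein Sdha had levels of 3.73, 3.85 and 4.09 with curcumin and 3.07, 3.23 and 3.20 without. The arrays did not overlap, but the change of 0.72 log2 (SE 0.28) missed the threshold (limma adjusted p = 0.066; adjusted p = 0.035 with a block for slides). Its other probe gave 0.69. The iron-sulfur subunit Sdhb had levels of 5.94, 5.78 and 6.07 with curcumin and 5.37, 5.13 and 5.21 without, a difference of 0.69 log2 (SE 0.25, limma adjusted p = 0.056; adjusted p = 0.049 with a block for slides). The membrane anchor Sdhc rose by 0.69 log2 (SE 0.23, limma adjusted p = 0.044), with -0.41 on spike-in scaling. Sdhd, the other anchor, fell by 0.53 log2 on spike-in scaling (SE 0.20, limma adjusted p = 0.047), whereas its 75th-percentile value was 0.58 (adjusted p = 0.11). On spike-in scaling the median of all genes was -0.69 log2 and 43.5% were called lower, so Sdhd fell less than that median.

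Complex III, cytochrome bc1, had a median change of 0.75 log2, and 1 of 8 subunits was called higher (all genes, 21.9%). This was Uqcrq, a small subunit of the complex (0.83 log2, SE 0.24, limma adjusted p = 0.029), chosen after its values were seen. The core subunit Uqcrc1 had levels of 6.69, 6.48 and 6.84 with curcumin and 6.14, 5.78 and 5.76 without. The difference of 0.78 log2 (SE 0.28) missed the threshold (limma adjusted p = 0.060). Uqcrfs1, the Rieske iron-sulfur protein that takes electrons from ubiquinol, had the lowest value of the complex. Its levels were 5.25, 5.35 and 5.74 with curcumin and 5.08, 5.15 and 5.07 without, a difference of 0.35 log2 (SE 0.29, limma adjusted p = 0.35). On spike-in scaling its levels were 3.21, 3.18 and 3.39 with curcumin and 4.10, 4.18 and 3.77 without, again with no overlap and in the opposite order. There it fell by 0.76 log2 (SE 0.21, limma adjusted p = 0.015), the largest decrease among the subunits. That value lay near the median of all genes on this scale, -0.69 log2.

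The unscaled signals of Uqcrfs1 were 22157, 25147 and 25347 with curcumin and 31055, 34797 and 31861 without. Those of Cox4i1 were 155593, 143191 and 140264 with curcumin and 156813, 149104 and 144624 without. Uqcrfs1 was dimmer on every curcumin array than on every untreated array, while the Cox4i1 signals overlapped.

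Complex IV, cytochrome c oxidase, had a median change of 0.72 log2, and 4 of its 15 subunits were called higher (all genes, 21.9%). Cox4i1, the ubiquitous form of subunit IV, had levels of 8.07, 7.86 and 8.21 with curcumin and 7.42, 7.25 and 7.26 without. It rose by 0.74 log2 (SE 0.25, limma adjusted p = 0.047), but its value was -0.37 on spike-in scaling, -0.10 on median scaling and -0.03 on quantile scaling. Cox7a2l, a subunit known to bind complexes III and IV into supercomplexes, had levels of 4.25, 4.35 and 4.57 with curcumin and 3.62, 3.45 and 3.39 without. It rose by 0.90 log2 (SE 0.27, limma adjusted p = 0.029), with -0.20 on spike-in scaling. Cox5a and Ndufa4, a subunit once assigned to complex I, had 0.67 and 0.68 log2 (limma adjusted p = 0.077 and 0.10).

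Cox6a2 and Cox7a1, isoforms known from heart and skeletal muscle, were well above background on all 12 arrays, while Cox8b was so on 0 arrays. Cox6a2 had levels of 2.37, 1.99 and 1.84 with curcumin and 1.43, 0.81 and 0.70 without. It rose by 1.09 log2 (SE 0.27, limma adjusted p = 0.015), the largest change of the 78, and its spike-in value was -0.02. Fits that each left out 1 array gave limma adjusted p-values between 0.0062 and 0.064, and Cox6a2 was not called in the fits that lacked curcumin replicate 1, untreated replicate 2 or untreated replicate 3. Cox7a1 had levels of 1.79, 1.09 and 1.46 with curcumin and 1.13, 0.60 and 0.54 without. These overlap, and the difference of 0.69 log2 (SE 0.29) was not called (limma adjusted p = 0.092). Of 5 heart and skeletal muscle markers, Myh6 was above background on 0 of 12 arrays, Ckm on 2, Mb on 3, Tnnt2 on 10 and Actc1 on 12. Their summed level, as a ratio to the 75th percentile, was 0.186 to 0.366 with curcumin and 0.0654 to 0.143 in untreated cells, without overlap. The sums over markers of 3 other cell types also lay higher with curcumin and without overlap, at 0.334 to 0.746 against 0.190 to 0.300 in untreated cells for neurons, 12.4 to 15.8 against 7.48 to 9.23 for astrocytes and 0.111 to 0.150 against 0.0616 to 0.0778 for T and B cells, while those for oligodendrocytes overlapped. Aldoc (mean signal 6460), Tubb3 (232) and Actc1 (90) were by far the brightest of the astrocyte, neuron and muscle markers, so these sums rest mainly on them. Sums for microglia and macrophages overlapped, at 331 to 447 with curcumin and 231 to 339 in untreated cells. Of all genes, 47.5% lay higher with curcumin without overlap on this scale. The part of muscle markers in the values of Cox6a2 was not tested.

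Cox7c, a small subunit of the complex, had the widest error of all members (SE 0.87). Its levels were 0.63, 2.59 and 2.93 with curcumin and 0.51, 2.07 and 1.96 without. Slide 1 was low in each of the 4 groups, and within slides the differences were 0.11, 0.52 and 0.97 log2.

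Complex V, the ATP synthase, had a median change of 0.72 log2, and 7 of its 17 subunits were called higher (all genes, 21.9%). Atp5e, the epsilon subunit of the central stalk, had levels of 7.57, 7.28 and 7.62 with curcumin and 6.85, 6.49 and 6.58 without. It rose by 0.85 log2 (SE 0.28, limma adjusted p = 0.042), with -0.25 on spike-in scaling. Atp5mpl, a small membrane subunit, rose by 0.67 log2 (SE 0.23, limma adjusted p = 0.049), with -0.44 on spike-in scaling. Atp5a1 (the alpha subunit) and Atp5b (the beta subunit, which holds the catalytic sites) had 0.70 and 0.68 log2 and missed the threshold (limma adjusted p = 0.086 for each). The unscaled signals of Atp5b were 134652, 147623 and 153370 with curcumin and 147663, 164684 and 152744 without, which overlap.

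**Figure D2:**
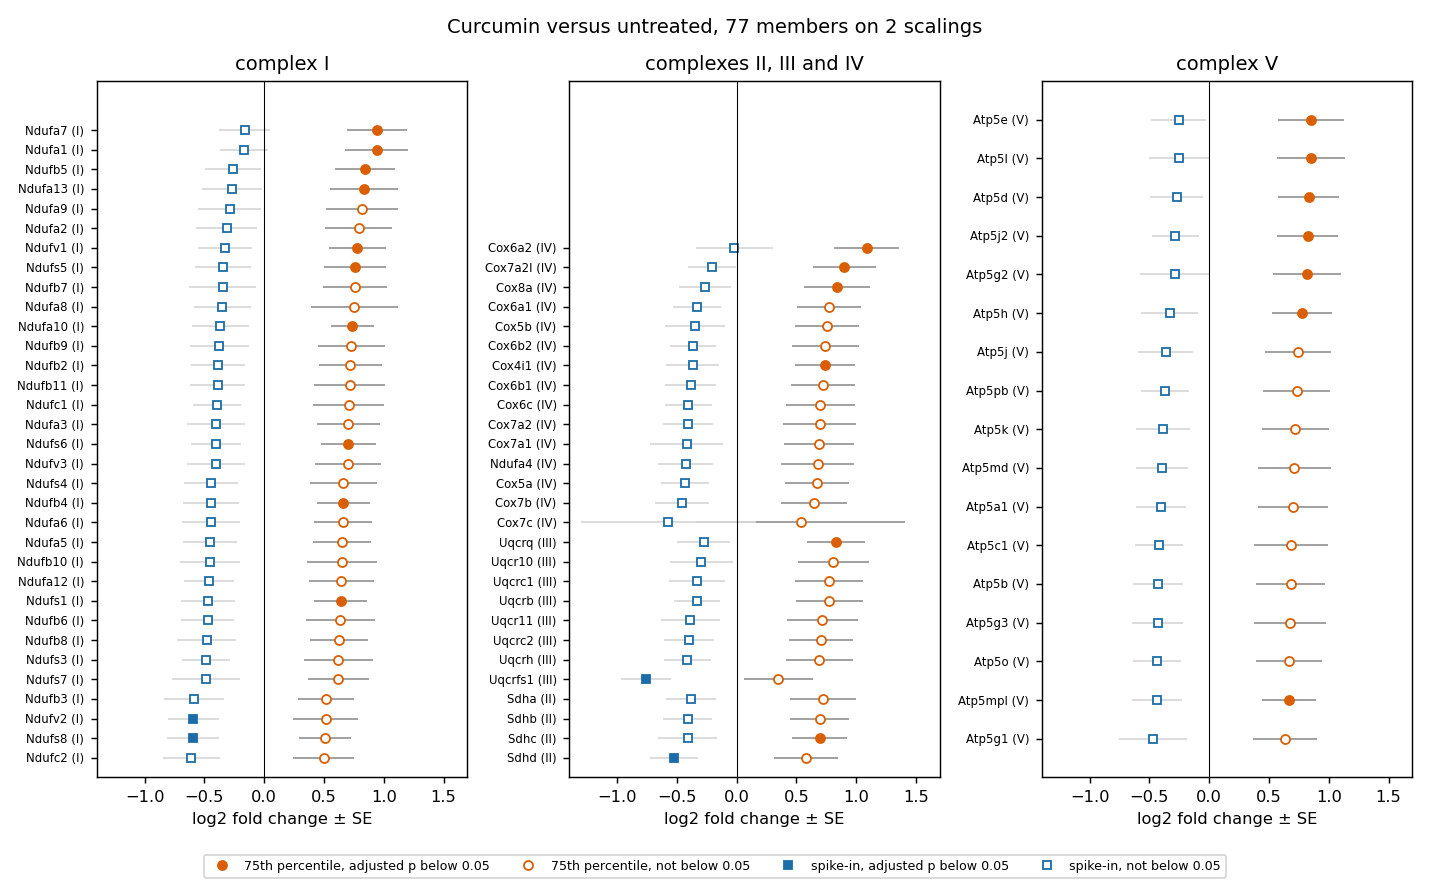
Log2 fold change of curcumin over untreated cells for 77 of the 78 subunits, each with its standard error (3 arrays per group), on the 75th percentile (orange circles) and on the spike-in probes (blue squares); filled symbols have an adjusted p below 0.05. All orange values lie above 0 and all blue values below it, and Uqcrfs1 is the lowest on both.

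Relative to the median of the subunits on the same array, a measure that additive scaling leaves unchanged, 8 subunits lay higher on all curcumin arrays than on all untreated arrays and 6 lay lower. The matching shares of all genes were 13.9% and 41.9%, so neither count exceeded the background. Atp5d, Atp5j2, Cox7a2l, Cox8a, Ndufa1, Ndufa7 and Uqcrq were among the higher ones. For Ndufa7 this held for the brightest probe, while its other probe had a change of 0.70 log2, near the subunits' median of 0.71. The lower ones were Cox7b, Ndufc2, Ndufs8, Ndufv2, Sdhd and Uqcrfs1. Of these, Ndufs8, Ndufv2, Sdhd and Uqcrfs1 are the 4 that limma called lower on spike-in scaling, Ndufs8 and Ndufv2 being iron-sulfur subunits of complex I (-0.60 and -0.59 log2, adjusted p = 0.043 and 0.038). These 4 were named after their values were seen. On spike-in scaling the median of all genes was -0.69 log2, and 43.5% of them were called lower.

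Uqcrfs1 lay -0.68, -0.51 and -0.38 from the subunit median with curcumin and -0.32, -0.11 and -0.14 in untreated cells. Ndufa1 lay at 0.29, 0.36 and 0.41 with curcumin and -0.10, 0.20 and 0.17 without. In each case the arrays did not overlap, in opposite directions. Cox7a2l lay at -1.69, -1.50 and -1.55 with curcumin and -1.79, -1.81 and -1.83 without, close to each other but again without overlap.

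**Figure D3:**
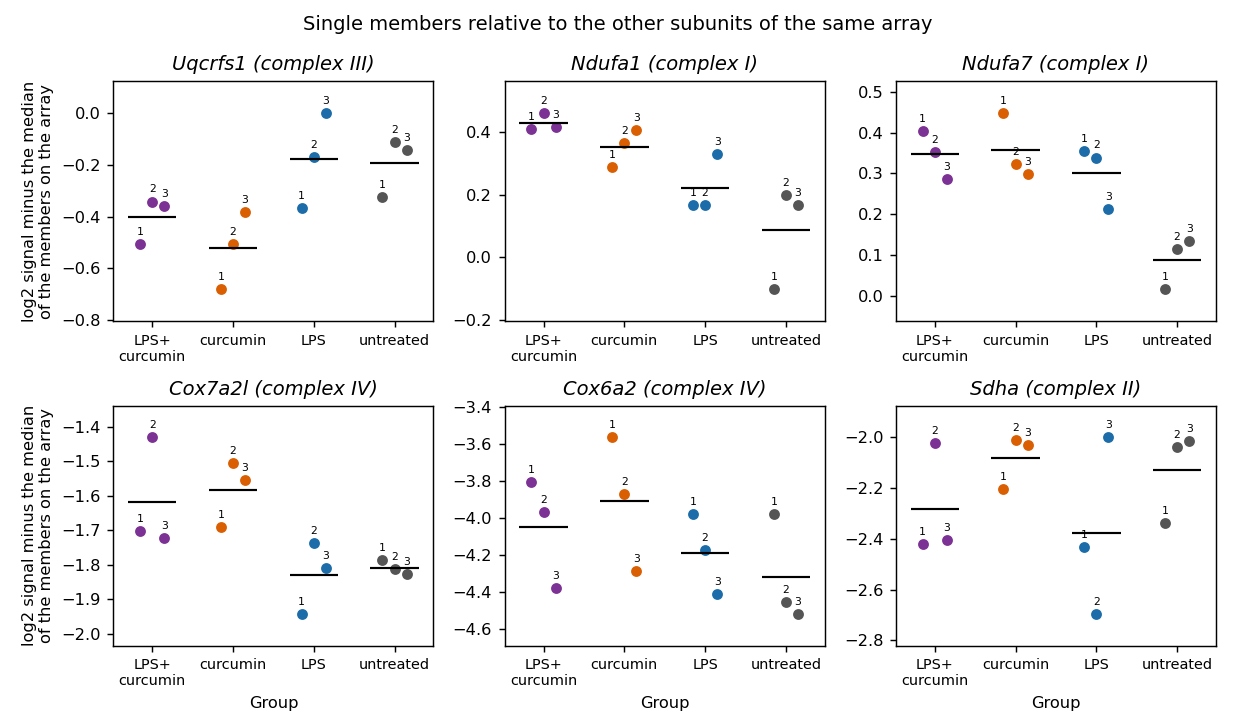
Log2 signal of 6 subunits minus the median of the 78 subunits on the same array, for the 12 arrays (points numbered by replicate, bars for group means). With curcumin, Uqcrfs1 lies lower and Ndufa1, Ndufa7 and Cox7a2l lie higher than on all untreated arrays, while the Cox6a2 and Sdha points overlap.

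LPS alone was then compared with no treatment, which asks whether microglial activation moved the chain within 6 h. Limma called 0 of 78 subunits higher and 0 lower, against 4.12% and 1.61% of all genes, and 0 had an unadjusted p under 0.05. The median change was 0.01 log2, with a range from -0.28 (Sdha) to 0.24 (Cox6b2, an isoform known from testis). Per array, the median level of the subunits was 5.34, 5.36 and 5.10 with LPS and 5.41, 5.26 and 5.21 in untreated cells, which overlap. On spike-in scaling the median was -0.27, close to the -0.27 of all genes, with 0 calls by limma (all genes, 1.87% higher and 1.51% lower) and 1 subunit at an unadjusted p under 0.05. The standard error of a subunit's change had a median of 0.27 log2. Changes of that size or smaller were not detectable with these arrays, and changes well above it could also go uncalled. Under curcumin, Sdha and Uqcrc1 missed the threshold at 0.72 and 0.78 log2.

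Complex II was the complex whose 4 subunits all had negative values with LPS, with a median of -0.15 log2 and a range from -0.28 to -0.08. Sdha had levels of 2.90, 2.67 and 3.10 with LPS and 3.07, 3.23 and 3.20 in untreated cells, with overlap between 1 array of each. Its difference of -0.28 (SE 0.28) was not called (limma adjusted p = 0.84), and its other probe gave -0.24. All 3 slide medians of complex II were below 0. On all LPS arrays 4 subunits lay higher than on all untreated arrays (Atp5a1, Atp5b, Cox6b2 and Cox6c) and Ndufs1 lay lower, 5.13% and 1.28% of the subunits against 16.8% and 15.8% of all genes. Other probes of Atp5b had changes of -0.11 and -0.12 log2 with LPS, against 0.13 for the probe used. The other probe of Atp5a1 had -0.03, against 0.10.

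Curcumin on top of LPS was compared with LPS alone, which asks whether the subunits followed curcumin in activated cells too. All 78 values were positive on the 75th-percentile scale, with a median of 0.58 log2 and a range from 0.34 (Uqcrfs1) to 0.78 (Cox7a1). Limma called 0 higher and 0 lower, against 12.7% and 5.99% of all genes, and 29 had an unadjusted p under 0.05. The slides differed, with medians of -0.03, 0.39 and 1.34 log2 for slides 1, 2 and 3. The array medians were 5.29, 5.72 and 6.47 with LPS and curcumin and 5.34, 5.36 and 5.10 with LPS. Replicate 1 lay among the LPS arrays and replicates 2 and 3 above them, so that 12 subunits, against 19.4% of all genes, did not overlap between the groups.

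Without LPS+curcumin replicate 1 the median was 0.85 log2 and limma called 71 subunits higher, 91.0% against 40.0% of all genes. With the slide as a replicate block and all arrays, Ndufa1 and Ndufa10 were called higher (2 subunits, against 20.1% of all genes). Ndufa1 had levels of 5.70, 6.18 and 6.88 with LPS and curcumin and 5.50, 5.53 and 5.42 with LPS, without overlap. Its difference was 0.77 log2 (SE 0.26, limma adjusted p = 0.062; adjusted p = 0.040 with the block), and 0.05 on spike-in scaling. Ndufa10, an accessory subunit of complex I, had levels of 4.04, 4.25 and 4.53 with LPS and curcumin and 3.82, 3.71 and 3.77 with LPS. Its difference was 0.51 log2 (SE 0.18, limma adjusted p = 0.067; adjusted p = 0.045 with the block), and -0.21 on spike-in scaling.

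On spike-in scaling the median of the subunits in this comparison was -0.14 log2, against -0.40 for all genes. Limma called 0 of 78 in either direction there, against 4.86% of all genes higher and 11.8% lower, and 0 had an unadjusted p under 0.05. Uqcrfs1 had the lowest value there too (-0.38 log2, limma adjusted p = 0.20). The distance between subunits and all genes was 0.26 log2 on the 75th-percentile scale, where it was 0.10 without LPS+curcumin replicate 3 and -0.016 with no filter on dim probes. It was 0.38 without LPS+curcumin replicate 1 and 0.30 for probes well above background on all 12 arrays. After normexp background correction it was 0.12.

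**Figure D4:**
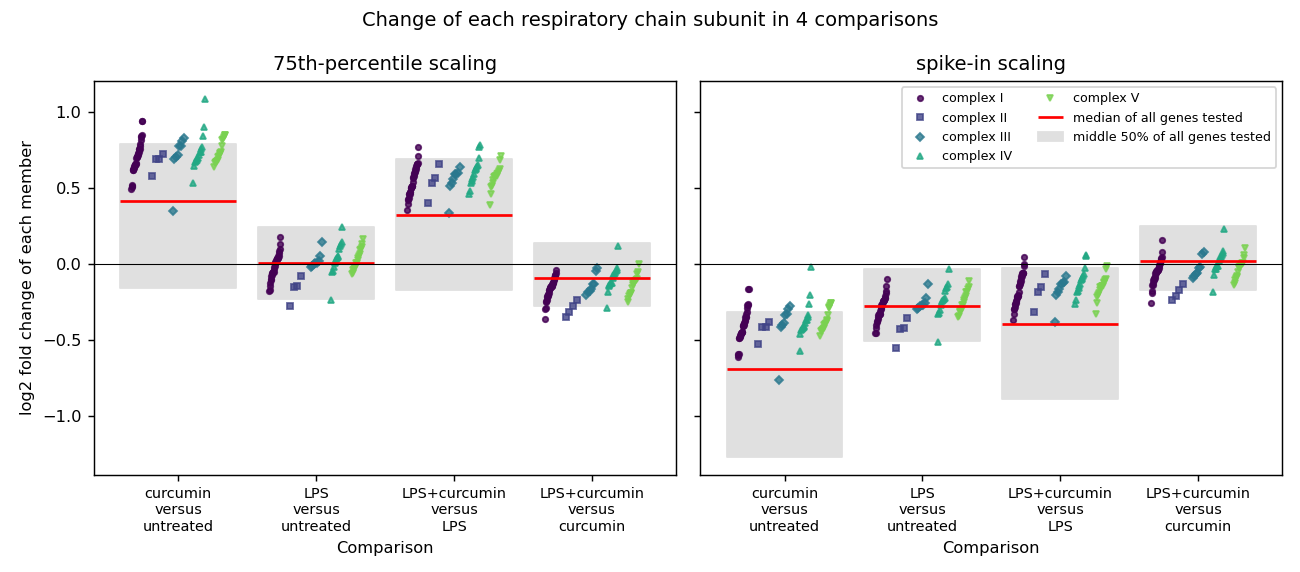
Log2 fold change of each subunit, by complex, in 4 comparisons, beside the median (red line) and the middle 50% (grey box) of all 19323 genes, on the 75th percentile (left) and the spike-in probes (right). For LPS+curcumin over LPS all subunits lie above the median of all genes on either scale, and for curcumin over untreated all but Uqcrfs1 do; in both they lie above 0 on the left and mostly below 0 on the right.

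Relative to the subunit median of the same array, 4 subunits (Atp5e, Cox7a2l, Ndufa1 and Ndufb11) lay higher on all LPS+curcumin arrays than on all LPS arrays and 0 lay lower, against 7.58% and 20.1% of all genes. Uqcrfs1 lay at -0.51, -0.34 and -0.36 with LPS and curcumin and -0.37, -0.17 and 0.00 with LPS, which overlap. Between LPS and untreated cells, 9 lay higher and 3 lower on this measure, against 18.7% and 11.8% of all genes. Ndufa7 was among the 9, at 0.35, 0.34 and 0.21 with LPS and 0.02, 0.11 and 0.14 in untreated cells. The other probe of Ndufa7 had a change of 0.07 log2 with LPS, against 0.18 for the probe used.

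LPS and curcumin together, set against curcumin alone, gave a median of -0.14 log2, with 0 of 78 called in either direction by limma (all genes, 0.202% higher and 0.0104% lower) and 0 with an unadjusted p under 0.05. The slide medians were -0.67, -0.08 and 0.32, and without LPS+curcumin replicate 1 the median was 0.12. The 4 complex II subunits had a median of -0.30, the lowest of the 5 complexes. The interaction, the curcumin effect in LPS-treated cells minus that in cells without LPS, had a median of -0.15 log2, or 0.12 without LPS+curcumin replicate 1. Limma called 0 of 78 in either direction (all genes, 0.0207% higher and 0.709% lower), and 0 had an unadjusted p under 0.05. On the 75th-percentile scale 77 of the 78 interaction values were negative. On spike-in scaling the sign turned, with a median of 0.24 log2 and 1 of 78 negative, and again 0 called or at an unadjusted p under 0.05 by limma. A difference between the curcumin effect with and without LPS was therefore not detected in any subunit on either scale. These comparisons share groups of arrays with the earlier ones.

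Different probes of the same subunit gave similar values for most subunits in the curcumin comparison. For the 15 subunits with other tested probes, the spread between probes in the curcumin comparison had a median of 0.06 log2 and reached 0.31 (Ndufv3), with no opposite signs. In the LPS comparison, where values lie near 0, 6 of the 15 had probes of opposite sign. The spread reached 0.52 in LPS+curcumin over LPS and 0.56 in LPS+curcumin over curcumin, both for Ndufv3.

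Other parts of mitochondrial biology were counted beside the subunits in the curcumin comparison. All counts of calls are to be read against the 21.9% of all genes called higher and 7.27% called lower on the 75th-percentile scale, and 7.25% and 43.5% on spike-in scaling. Of 22 electron carriers and other chain parts, 6 were called higher and 0 lower, with a median of 0.63 log2. Cycs, cytochrome c itself, had 0.69 (SE 0.30, limma adjusted p = 0.097), and Ndufab1, the acyl carrier protein that is also a complex I subunit, had 0.48 (SE 0.27, limma adjusted p = 0.18) and fell by 0.63 on spike-in scaling (adjusted p = 0.029). No tested probe was matched for AA467197. Coq5, an enzyme of ubiquinone synthesis, rose by 0.89 (SE 0.28, limma adjusted p = 0.035), and Slc25a3, the mitochondrial phosphate carrier, rose by 0.67 (SE 0.22, limma adjusted p = 0.042). Of 19 tricarboxylic acid cycle genes, 6 were called higher and 0 lower, with a median of 0.59. Pcx, pyruvate carboxylase, rose by 0.83 (SE 0.19, limma adjusted p = 0.011) and Idh3b by 0.82 (SE 0.24, limma adjusted p = 0.029). On spike-in scaling these were -0.21 (Coq5), -0.44 (Slc25a3), -0.27 (Pcx) and -0.28 (Idh3b), and limma called 0 genes of either list higher there, with 6 of the 22 and 3 of the 19 called lower.

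Assembly factors and regulators had lower medians than the subunits, by a distance that additive scaling leaves unchanged. Most of these genes were dimmer than most subunits, and the median change of all genes varied with brightness. On the 75th percentile it was 0.60 log2 in the bright class, which holds 64 subunits. It was 0.32, 0.11, 0.03 and -0.03 in classes with median signals of 5991, 2518, 1158 and 510. The dimmest class, with a median signal of 6.77, had 1.11. The lists were not matched to the subunits in brightness, and its part in this contrast was not tested. Of 15 complex I assembly factors, 0 were called higher and 1 lower, with a median of 0.39 log2, and on spike-in scaling 0 were called higher and 9 lower. The 1 called on the 75th-percentile scale was Tmem186, which fell by 0.59 log2 (SE 0.18, limma adjusted p = 0.032) and further on spike-in scaling (adjusted p = 0.0045). Of 28 assembly factors of complexes II to V, 2 were called higher and 4 lower, with a median of 0.30, and on spike-in scaling 0 were called higher and 17 lower. Sdhaf1, an assembly factor of succinate dehydrogenase, fell by 0.79 (SE 0.21, limma adjusted p = 0.018) and by 1.90 on spike-in scaling (adjusted p = 0.0049). Atpaf1, an assembly factor of the ATP synthase, fell by 0.76 (SE 0.21, limma adjusted p = 0.023) and by 1.86 on spike-in scaling (adjusted p = 0.0051).

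Of 16 regulators of mitochondrial biogenesis, 0 were called higher and 2 lower, with a median of -0.20 log2, and on spike-in scaling 0 were called higher and 15 lower. Esrra, the nuclear receptor ERRalpha that binds promoters of many respiratory genes, had levels of 2.07, 2.01 and 2.05 with curcumin and 2.74, 2.67 and 2.74 in untreated cells. The groups lay far apart relative to their spread, and Esrra fell by 0.67 log2 (SE 0.22, limma adjusted p = 0.045) and by 1.78 on spike-in scaling (adjusted p = 0.0059). Polrmt, the mitochondrial RNA polymerase, fell by 0.60 (SE 0.17, limma adjusted p = 0.025) and by 1.71 on spike-in scaling (adjusted p = 0.0051). Nrf1, Gabpa and Tfam had 0.08, -0.35 and -0.17 log2 and were not called on the 75th-percentile scale (limma adjusted p = 0.74, 0.21 and 0.40). On spike-in scaling these 3 were called lower, by limma, at -1.03, -1.45 and -1.27. Ppargc1b had -0.45 (limma adjusted p = 0.28), and Ppargc1a was not tested.

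Of 21 genes of mitochondrial import and the inner membrane, 3 were called higher and 0 lower, with a median of 0.56 log2, and on spike-in scaling 0 were called higher and 7 lower. Lonp1, the matrix protease, had levels of 6.18, 6.24 and 6.58 with curcumin and 5.32, 5.38 and 5.55 without, with no overlap. It rose by 0.91 (SE 0.23, limma adjusted p = 0.016), against -0.19 on spike-in scaling. Hspa9, the matrix chaperone mortalin, rose by 0.79 (SE 0.21, limma adjusted p = 0.019), against -0.32. In the presence of LPS, Esrra had levels of 2.23, 1.34 and 2.11 with curcumin and 2.68, 2.80 and 2.56 without, with replicate 2 the lowest. It fell by 0.79 log2 in LPS+curcumin against LPS (SE 0.22, limma adjusted p = 0.035) and by 1.51 on spike-in scaling (adjusted p = 0.025). The subunits encoded by mitochondrial DNA were not tested here.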

How the data were processed

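RNA of 12 samples was labelled with Cy3 and hybridised to 1-colour Agilent arrays. The deposited intensities are spot signals that the authors' scanner software corrected for background, per the file headers from Feature Extraction 10.5.1.1; the submitters' processing notes name version 9.1. Each array holds 45018 spots, 1639 of them controls. Signals were divided by the 75th percentile of their own array (control spots left out) and taken to log2, with outlier spots removed and spots of 1 probe averaged. Probes had to be well above background on every array of some group, and the brightest such probe was kept per gene. The fit held 19323 genes and transcripts. The number of arrays limits the precision.

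All genes were fitted in limma 3.58.1 (R 4.3.3, lmFit and eBayes, 4 group means over all 12 arrays), with Benjamini-Hochberg adjustment over all of them and a threshold of 0.05. Tests were tried on simulated data with known changes first. Replicate numbers coincide with slides: same-numbered arrays deviated together in every pair (correlations from 0.11 to 0.71) but LPS+curcumin against LPS on slide 3 (-0.02), so the slide was also fitted as a block. Normexp used an offset of 50 and the median spot signal in place of the mean.

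Named genes are the 5 highest and 5 lowest called subunits of a comparison, a fixed set of core, catalytic and isoform subunits, chosen regulators, and up to 2 called genes with the smallest adjusted p in each related list. The members and lists were chosen with earlier results of these data known. The result of 1 subunit is not reported here by name. Promoters were read from RefSeq with Python 3.11.15.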

Additional observations from a re-analysis of the deposited data

How the results depend on the processing

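The subunits' levels depend on the scale, on single arrays and on the spread estimated from 3 arrays a group. On spike-in scaling the count of subunits called higher under curcumin was 0 (all genes, 7.25%) and lower 4 (all genes, 43.5%). The medians there turned to -0.40 (curcumin over untreated), -0.27 (LPS over untreated) and -0.14 (LPS+curcumin over LPS). The interaction median turned to 0.24 as well, with 0 calls (all genes, 0.0155% higher and 0.269% lower). The single subunits turned too under curcumin: Cox6a2 -0.019, Ndufa7 -0.16, Ndufa1 -0.17, Cox7a2l -0.20, Atp5e -0.25, Ndufv1 -0.33, Cox4i1 -0.37, Ndufs6 -0.40, Sdhc -0.41, Atp5mpl -0.44, Ndufb4 -0.44, Ndufs1 -0.47 and Uqcrfs1 -0.76. On median scaling the count was 0 (all genes, 8.19%), and 0 were called lower (all genes, 25.1%). The medians there were -0.13, -0.14 and -0.16 in the same order, and Ndufs6 (-0.14), Sdhc (-0.14), Atp5mpl (-0.17), Ndufb4 (-0.18), Ndufs1 (-0.20), Ndufv1 (-0.058) and Cox4i1 (-0.10) turned. On quantile scaling the count was 5 (all genes, 11.6%), the curcumin median 0.16, the LPS median -0.19, Cox4i1 -0.032, and LPS+curcumin over LPS had 4 calls (all genes, 6.52%). The count with normexp was 0 (all genes, 3.85%). Normexp gave medians of -0.083 for curcumin, 0.57 for LPS+curcumin over curcumin and 0.59 for the interaction, with Ndufs6 -0.090, Sdhc -0.030, Atp5mpl -0.077, Ndufb4 -0.17 and Ndufs1 -0.18. It raised the 75th percentile of curcumin replicate 1 to 2934, against 599.8 in the uncorrected signal, and without that array, an alternative chosen after seeing the data, the count was 14 (all genes, 21.8%).

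The count under curcumin was 8 with no filter on dim probes (more genes tested; all genes, 16.0%) and 76 with only the groups compared (all genes, 40.6%). The 75th percentile over always detected probes gave 8 calls for LPS+curcumin over LPS (all genes, 14.6%). With the slide as a replicate block this comparison had 2 calls (all genes, 20.1%). Other settings on spike-in scaling were chosen after seeing the data: without LPS+curcumin replicate 1, 8 subunits were called lower under curcumin (all genes, 55.3%), and the medians were -0.23 for LPS+curcumin over LPS, -0.13 for LPS+curcumin over curcumin (-0.033 with all arrays) and 0.14 for the interaction. With the slide as a replicate block on that scaling, 5 were called lower under curcumin (all genes, 50.4%), and the medians equal those with all arrays and no block. Single slides gave 0.97 for curcumin (slide 3), 0.14 for LPS (slide 2), 1.34 for LPS+curcumin over LPS (slide 3), -0.67 for LPS+curcumin over curcumin (slide 1) and 0.36 for the interaction (slide 3). Of the fits that left out 1 array, the share of all genes called higher was counted only without LPS+curcumin replicate 1. It was 36.8% under curcumin and 40.0% for LPS+curcumin over LPS. Leaving out each array in turn gave counts of 1 to 75 under curcumin and 0 to 71 for LPS+curcumin over LPS. The medians then ran from 0.63 to 0.78 for curcumin, -0.04 to 0.10 for LPS, 0.26 to 0.85 for LPS+curcumin over LPS, -0.45 to 0.12 for LPS+curcumin over curcumin and -0.47 to 0.12 for the interaction. Where no construction shows it, the cause was not tested.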
